A study of Saccharomyces cerevisiae with 3 samples.

Results

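The array features described here carry the names of the open reading frames (ORFs) that lie nearest to the chromosome ends of budding yeast. Systematic names number the ORFs of each chromosome arm outward from the centromere, so on each of the 32 arms the features with the 10 highest different ORF numbers on the array were taken. That gave 420 of the 6399 features (6.56%), under 327 ORF names, with 10 to 22 features an arm and a median of 12. Of the 420 members, 417 had a value in all 3 deposited columns and 3 had none: YRF1-6, SNO2 and 1 of the 2 features named for PAU20.

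The series followed Maf1 on chromatin of Saccharomyces cerevisiae. In every group the cells carried myc-tagged Maf1 and grew in YPD, a rich medium, to an OD600 of 0.6. They were left untreated, or were given rapamycin at 0.2 ng/ul for 30 min or for 120 min. Crosslinked chromatin was depleted of Maf1 with antibodies, and DNA of the depleted chromatin (Cy5) was hybridized against DNA of the input chromatin (Cy3) on arrays of intergenic DNA. Each condition has 1 column, in which the authors averaged 3 replicates that had been normalized with a list of genes. The labels name no strain background, no further allele and no group without the tag, and they do not say whether the replicates were separate cultures.

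Yeast chromosome ends carry X elements and, on some ends, Y′ elements, and next to them lie gene families repeated from end to end. Genes close to a telomere can be silenced by the Sir proteins, and the silent mating-type loci HML and HMR near the ends of chromosome III are silenced by the same proteins. Maf1 represses RNA polymerase III (Pol III), which makes tRNAs, 5S ribosomal RNA and other small RNAs, and rapamycin inhibits the TOR kinase complex that otherwise keeps Maf1 phosphorylated during growth.

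Values below are centred scores, the deposited score minus the median of its column over all measured features, and a difference between conditions is a difference of centred scores. The labels give no log base and do not say which DNA is on top of the ratio. A higher score is therefore not read as more or less Maf1, and with the sign turned every higher value reads as a lower one. The robust standard deviation (SD, the median absolute deviation scaled to match a normal SD) over all features was 0.388 without rapamycin, 0.442 at 30 min and 0.512 at 120 min. Averaged columns hold no spread between arrays, so no test and no p-value is given, no difference below has a replicate check, and the number of arrays limits the precision. Intervals of medians are 95% intervals from order statistics, which cover the spread between features and not between arrays. A name places a feature beside an ORF without saying on which side.

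Whether these features lie at chromosome ends was checked in the R64 gene table of RefSeq, where 378 of the 420 members were found. On 20 of the 32 arms no gene in the table lay beyond the outermost matched member, and on the others at most 5 did. Between 4 and 16 table genes lay beyond the innermost matched member of an arm, so the members are the features of the last few genes of each arm. The members had few Pol III genes beside them. A Pol III gene was the next gene of 7 members (1.67%), of 7.98% of the other ORF-named features and of 11.5% of the ORF-named features nearest the centromeres. Features not found in the table, 42 members among them, have unknown neighbours. Here and below they were counted as having no Pol III gene next to them.

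As a set, the subtelomeric features lay close to the middle of each column. Their median score was -0.03 in untreated cells (interval -0.09 to 0.04), 0.03 after 30 min (-0.02 to 0.07) and -0.05 after 120 min in rapamycin (-0.11 to 0.02). All 3 intervals hold 0, but at 30 min the interval was 0.031 to 0.119 without centring and 0.022 to 0.110 with centring on ORF-named features without a Pol III neighbour. Above 0 lay 198 of the 417 measured members without rapamycin, 220 at 30 min and 192 at 120 min. The other ORF-named features without a Pol III gene next to them had medians of -0.04, -0.05 and -0.06. The ORF-named features nearest the centromeres, chosen by the same kind of rule at the other end of the arms, had -0.02, -0.01 and -0.03. At 30 min the members' median was the highest of the 3 groups, by less than 0.1 score units.

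The differences between conditions were also small for the set. From untreated cells to 30 min the members' median difference was 0.07 (interval 0.02 to 0.13), with 236 of 417 above 0. The same difference was 0.01 for the other ORF-named features without a Pol III neighbour, 0.01 for the centromere-near features and -0.00 over all features. From untreated cells to 120 min the members' median difference was 0.01 (-0.03 to 0.09), beside 0.07 over all features. From 30 to 120 min it was -0.02 (-0.07 to 0.05), also beside 0.07 over all features. The first 2 differences share the untreated column.

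The members differed from the other groups more in the width of the difference to 30 min than in its middle. The robust SD of that difference was 0.456 over the members, 0.320 over the other ORF-named features and 0.304 over the centromere-near features. Its quartiles were -0.28 and 0.33 in the members and -0.23 and 0.20 in the other ORF-named features. For the difference to 120 min the robust SDs lay nearer to each other, at 0.477, 0.413 and 0.443. In the scores themselves the members were wider than the other ORF-named features at 30 min, with robust SDs of 0.497 and 0.419, and not at 120 min, with 0.454 and 0.485. Within the set the robust SD of the difference to 30 min was 0.364 over the 2 outermost numbers of each arm and 0.473 over the other members. These widths were not tested.

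**Figure D1:**
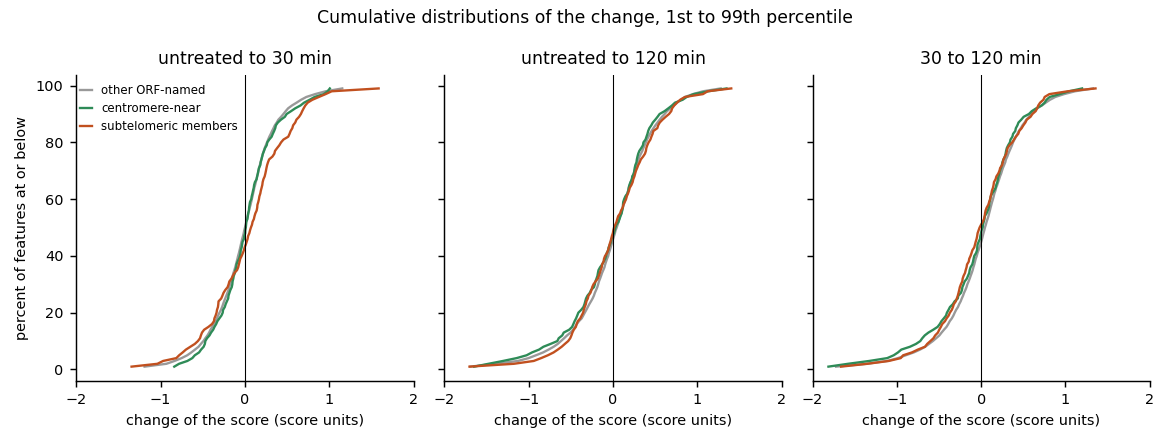
Differences of centred scores (score units, horizontal axis) between the 3 conditions, shown as cumulative shares (vertical axis, percent) for the subtelomeric members, the other ORF-named features and the ORF-named features nearest the centromeres, drawn from percentile 1 to percentile 99. For the difference from untreated cells to 30 min the members' curve is the flattest, with quartiles of -0.28 and 0.33 against -0.23 and 0.20 for the other ORF-named features.

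The tails were counted beyond 2 robust SDs of all features from the column median, a limit at 0.78, 0.88 and 1.02 score units in the 3 columns. In untreated cells 8 members (1.92%) lay above the limit, where 4.96% of all features did, and 28 (6.71%) lay below it, where 4.34% of all features did. At 30 min 4 members (0.959%) lay above, beside 1.83% of all features, and 15 (3.6%) lay below, beside 3.12%. At 120 min 7 members (1.68%) lay above, beside 7.6%, and 14 (3.36%) lay below, beside 4.35%. Beside the whole array the members had small shares of high scores, and in untreated cells a larger share of low scores. The 2 outermost numbers of each arm did not have that larger share of low scores, with 3 of 88 features (3.41%), beside 25 of the other 329 members (7.6%). With features next to a Pol III gene left out of both groups, 1.95%, 0.976% and 1.71% of the members lay above the limit in the 3 columns, beside 1.19%, 0.412% and 1.3% of the other ORF-named features, so there the members' shares were the larger ones.

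For differences between conditions the limit was 0.66 score units to 30 min, 0.88 to 120 min and 0.85 between the times in rapamycin. To 30 min 43 members (10.3%) were higher than the limit, beside 5.46% of all features, and 32 (7.67%) were lower, beside 5.72%. To 120 min 15 members (3.6%) were higher, beside 4.52%, and 18 (4.32%) were lower, beside 5.78%. The order of the upper shares turned with columns of equal spread (5.04% beside 3.93%) and with quantile normalization (6.47% beside 3.81%). From 30 to 120 min 10 members (2.4%) were higher, beside 5.86%, and 27 (6.47%) were lower, beside 5.94%. At this limit and scaling the step to 30 min had larger shares of members, taken as a set, than of all features on both sides. On the lower side this did not hold for the 2 outermost numbers of each arm, with 3.41%, beside 8.81% of the other members. On the upper side these groups had 10.2% and 10.3%. With quantile normalization the step from 30 to 120 min also had larger shares of members on both sides, with 4.32% beside 4.11% above and 9.11% beside 6.83% below. With the features of 1 number averaged first, 5.35% of the members were lower to 30 min, which is below the 5.72% of all features. With a limit of 3 robust SDs the shares of members to 30 min were 2.40% above and 2.88% below, beside 1.67% and 1.66% of all features.

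The order of the members along the arm carried more of a pattern than the set as a whole. Ranking the ORF numbers of each arm from the outermost inwards, the features of rank 1 had a median score of 0.12 without rapamycin, 0.50 at 30 min and 0.16 at 120 min. Rank 1 holds 42 features on the 32 arms. The one on the left arm of chromosome XIV, YRF1-6, had no value, so these medians cover 31 arms. At 30 min the interval of the rank 1 median was 0.23 to 0.59. Rank 2 stood at 0.17, 0.18 and 0.13, rank 3 at -0.01, 0.10 and 0.18, and rank 4 at -0.01, 0.06 and 0.05. Rank 5 was below 0 in all 3 columns, at -0.11, -0.15 and -0.26.

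Ranks 1 and 2 together (88 measured features) had medians of 0.13, 0.36 and 0.15, and ranks 3 to 10 (329 features) had -0.07, -0.02 and -0.10. Further in, the ORF-named features of ranks 11 to 40 stood at -0.07, -0.08 and -0.03. At 30 min ranks 1 and 2 thus stood highest, and ranks 3 to 10, at -0.02, also lay above ranks 11 to 40, at -0.08. Ranks 1 and 2 were the higher ones without rapamycin as well. Just inside the limit of the set, rank 10 had medians of -0.23, -0.13 and -0.30, and just outside it rank 11 had -0.04, -0.02 and -0.08. With the 5 highest numbers of each arm in place of 10, the medians of the set were 0.05, 0.13 and 0.07.

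**Figure D2:**
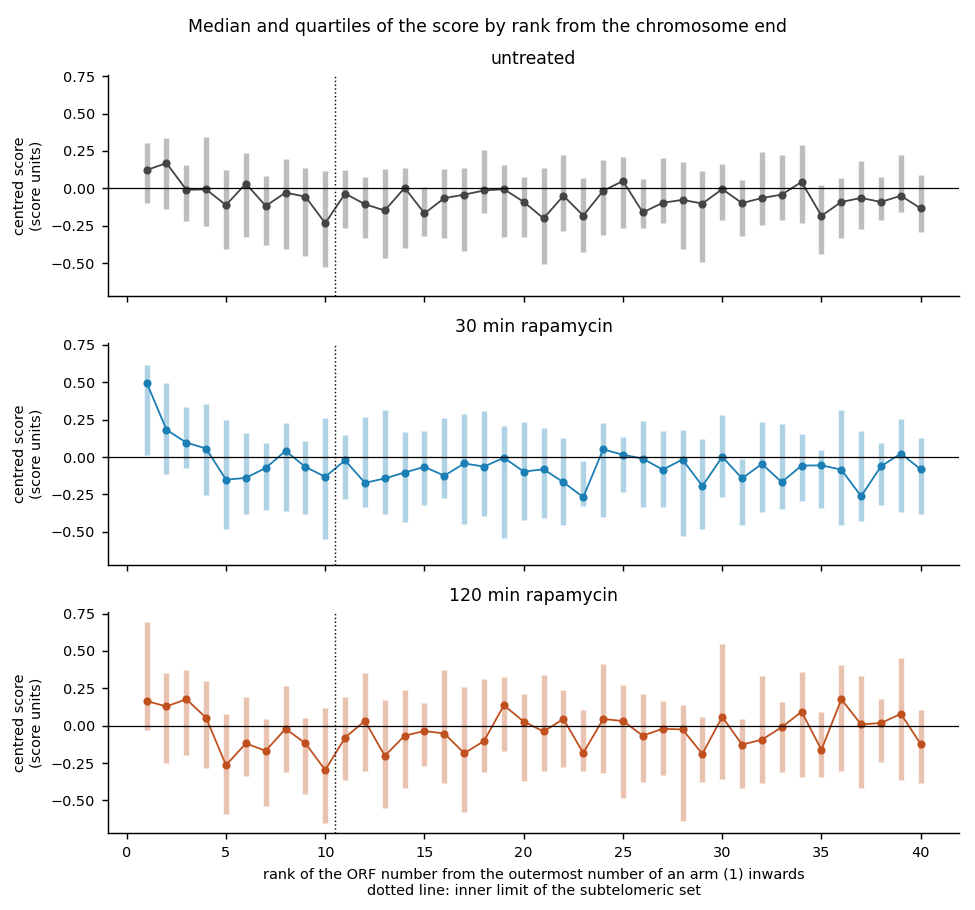
Median centred score (vertical axis, score units) by rank of the ORF number from the outermost inwards (horizontal axis), in untreated cells and after 30 and 120 min in rapamycin. Each pale bar runs from the lower to the upper quartile over features, the dotted line marks the inner limit of the set, and rank 1 stands highest at 30 min with a median of 0.50.

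By arm, with the features of a number averaged, the outermost number stood above 0 on 18 of 31 arms in untreated cells, on 25 at 30 min and on 22 at 120 min. The median over these arms was 0.11, 0.40 and 0.20. The difference to 30 min was above 0 on 23 arms, with a median of 0.27, and the difference to 120 min on 24 arms, with a median of 0.21. From 30 to 120 min 13 arms were higher, with a median of -0.07. Set against the other ORF-named features of the same chromosome, the outermost number was higher on 21, 25 and 22 of 31 arms, by a median of 0.20, 0.50 and 0.32. Many of these features belong to sequences repeated at several ends, so arms are not independent of each other here, and whether the array told the copies apart was not tested.

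At 30 min the outermost numbers of some arms stood high and those of others low. On 14 arms they stood between 0.50 and 0.82, and in untreated cells the same numbers ranged from -0.14 to 0.53. These arms are grouped by their 30 min score itself, so the difference between the columns is a description only. The highest was YRF1-7 on the left arm of XVI, which encodes a Y′ element helicase. It stood at 0.34 without rapamycin, 0.82 at 30 min and 0.62 at 120 min. YEL077C on the left arm of V followed with 0.26, 0.77 and 0.78, and YRF1-4, another Y′ helicase gene on the right arm of XII, with 0.28, 0.67 and 0.69. Both had higher scores at each time in rapamycin than in untreated cells.

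Others of the 14 arms had gene families of the subtelomere at their outermost number. PAU6, a seripauperin gene on the right arm of XIV, stood at -0.09, 0.59 and -0.06, and COS6 on the right arm of VII at 0.14, 0.60 and 0.52. The COS genes encode membrane proteins of a family that sorts cargo to the vacuole. YHL050C on the left arm of VIII stood at -0.14, 0.50 and 0.95, and YPR203W on the right arm of XVI at -0.11, 0.59 and 1.07. YFL068W, at the left end of VI and outside these 14 arms, had 0.12, 0.38 and 1.20, the highest score of an outermost number at 120 min. For these 3 the score at 120 min was higher than at 30 min, while for PAU6 it was back near its untreated value.

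On 6 arms the outermost number stood below 0 at 30 min. GEX2, a glutathione exchanger gene at the right end of XI, had -0.37, -0.54 and -0.23. RDS1, which encodes a zinc cluster transcription factor, had -0.46, -0.53 and -0.24 on the right arm of III. COS12 on the left arm of VII went the other way from COS6, with 0.56, -0.50 and 0.05. The other 3 arms were the right arm of I with PHO11, an acid phosphatase gene, the left arm of III with YCL075W, and the right arm of VI with IRC7, a gene for a cysteine desulphydrase-like enzyme. PHO11 stood at -0.40, -0.40 and -0.21, YCL075W at 0.38, -0.08 and -0.21, and IRC7 at -0.17, -0.46 and -0.15.

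Where an outermost ORF had a pair of features, numbered 0 and 1 on the array, the pairs of different ends could be set side by side. At 120 min feature 0 stood at 0.79 and feature 1 at 0.07 for YIL177C, and at 0.96 and 0.16 for YJL225C. For YML133C they stood at 0.92 and 0.30, and for YRF1-7 at 0.85 and 0.39. These 4 ORFs, at 4 different chromosome ends, had the same order of the pair and like values. Sequences repeated at several ends may not be told apart on the array, so these pairs may not be separate observations. YLL067C had the opposite order, with 0.34 and 0.63, and so did its inner neighbour YLL066C, with 0.27 and 0.81. Of the other outermost pairs, COS6 also had the opposite order, with 0.16 and 0.89. COS7, with 0.09 and -0.04, and GEX2, with 0.02 and -0.49, had the order of the first 4 pairs at lower values. At 30 min the order within the first 4 pairs was the reverse, with feature 1 higher: 0.52 and 0.54 for YIL177C, 0.54 and 0.72 for YJL225C, 0.60 and 0.69 for YML133C, and 0.72 and 0.93 for YRF1-7. COS7, with 0.01 and 0.63, and GEX2, with -0.64 and -0.44, also had feature 1 higher at 30 min, so this reversal was not particular to the first 4 pairs. All these ORFs were set side by side after their values had been seen.

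The arms differed in the median of all their members. Arm medians ran from -0.50 on the left arm of III to 0.26 on the left arm of I in untreated cells, from -0.41 on the left arm of III to 0.37 on the right arm of VIII at 30 min, and from -0.49 on the right arm of XI to 0.29 on the left arm of XIV at 120 min. They were above 0 on 12, 21 and 13 of the 32 arms. On 7 arms the median was above 0 in all 3 columns: the left arms of I, XIV and XV and the right arms of VII, VIII, IX and XII. On 8 arms it was below 0 in all 3: the left arms of III, V, VII and XI and the right arms of II, III, IV and XI. For the difference to 30 min, 25 arms had a median above 0, for the difference to 120 min 15, and from 30 to 120 min 14.

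**Figure D3:**
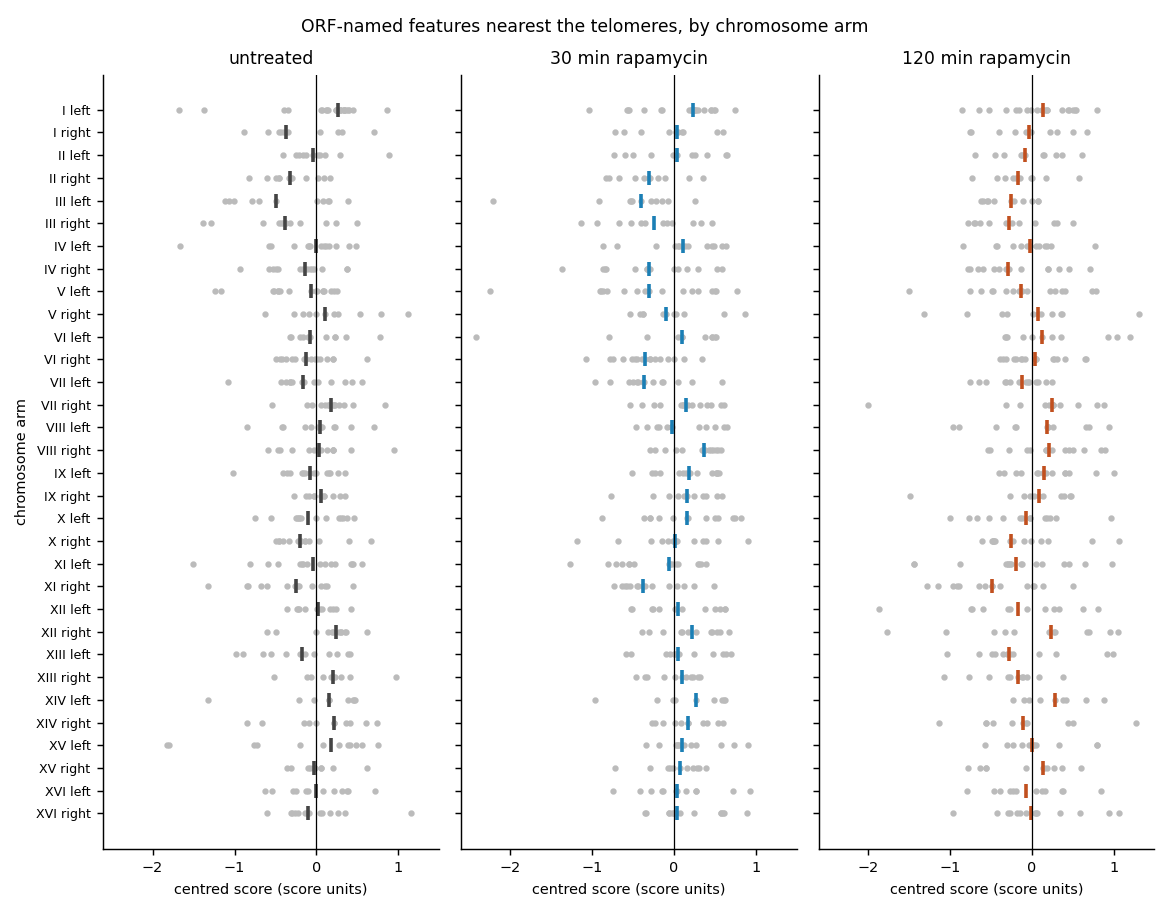
Median centred score of the subtelomeric members (score units) of each of the 32 chromosome arms (vertical axis) in the 3 conditions, as a coloured bar among grey points for the single members. The left arm of III stands lowest in untreated cells and at 30 min, at -0.50 and -0.41.

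Part of these differences between arms was shared with the rest of the chromosome. The other ORF-named features without a Pol III neighbour had medians by chromosome from -0.21 on II to 0.13 on XV in untreated cells, from -0.26 on V to 0.16 on XV at 30 min and from -0.21 on VII to 0.12 on XV at 120 min. Over the 32 arms the arm median and the median of the rest of its chromosome had a Pearson correlation of 0.308, 0.503 and 0.348 in the 3 columns, a description in which the arms of a chromosome share 1 value. Relative to the rest of their chromosome 19, 18 and 16 arms were higher. On 11 arms the members were higher in all 3 columns and on 7 they were lower in all 3. The right arm of VII stood 0.32, 0.36 and 0.46 above its chromosome, and the right arm of VIII 0.12, 0.45 and 0.26 above. The left arm of III stood at -0.39, -0.31 and -0.15 relative to its chromosome, and the right arm of XI at -0.16, -0.33 and -0.34.

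The right arm of VIII had the highest arm median at 30 min. Its outer members YHR219W and YHR218W had nearly the same course, with 0.20, 0.46 and 0.90 for the first and 0.20, 0.34 and 0.85 for the second. IMD2, which encodes an IMP dehydrogenase of guanine nucleotide synthesis, stood at 0.42, 0.36 and 0.41. PHO12, an acid phosphatase gene, had -0.44 without rapamycin, 0.38 at 30 min and 0.64 at 120 min, while its near copy PHO11 at the end of chromosome I stood below 0 in all 3 columns. FLO5, a flocculin gene further in on the same arm, had -0.47, 0.09 and -0.54. At 30 min 11 of the 14 members of the arm were above 0.

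Both ends of chromosome III were low. Its 23 members had medians of -0.40 without rapamycin, -0.36 at 30 min and -0.25 at 120 min, and 15, 19 and 16 of them lay below 0. Other ORF-named features of the chromosome without a Pol III neighbour had -0.11, -0.10 and -0.10. ADH7, an alcohol dehydrogenase gene near the right end, was low in untreated cells and at 30 min, with -1.29, -1.13 and -0.52. CHA1, the serine and threonine deaminase gene beside HML, had -1.12, -0.41 and -0.59. VBA3, which encodes a vacuolar permease of basic amino acids, had -1.004, -0.28 and -0.55.

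The features of the silent mating-type loci, singled out after their values had been seen, stood below 0 with few exceptions. At HML, HMLALPHA2 stood at -1.06, -0.92 and -0.47 and YCL068C at -0.70, -0.54 and 0.00. One feature of YCL065W stood at -0.50, -0.53 and -0.62, and the other at 0.08, -2.21 and -0.53. At HMR, HMRA2 had -0.20, -0.95 and -0.69, and HMRA1, with a tRNA gene next to it, had -0.65, -0.41 and -0.78. MATALPHA2 at the expressed mating-type locus, which is no member and shares sequence with HML, stood at -0.69, -0.96 and -0.17. It may not be told apart from HMLALPHA2 by hybridization.

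**Figure D4:**
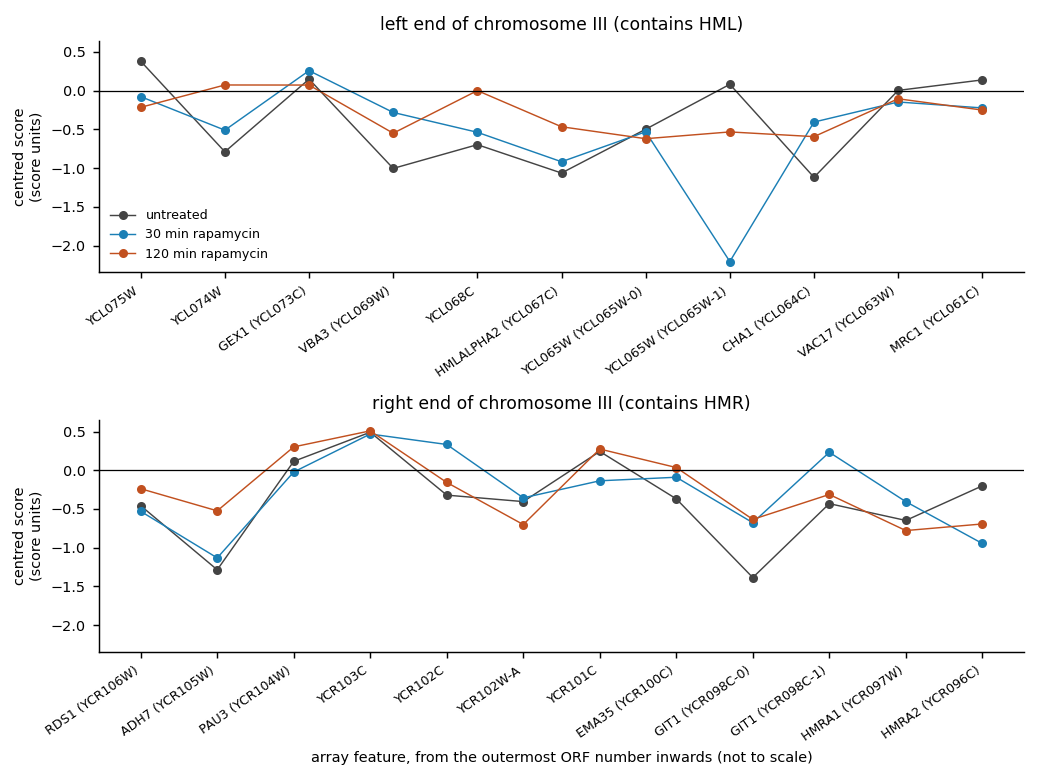
Centred scores (vertical axis, score units) of the members on both ends of chromosome III in the order of their ORF numbers, in the 3 conditions. Most points lie below 0, among them HMLALPHA2 at -1.06, -0.92 and -0.47 and ADH7 at -1.29, -1.13 and -0.52.

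Among the repeated gene families of the chromosome ends, 102 members belonged to the lists used here and 99 had a value. Their medians were 0.02 without rapamycin, 0.09 at 30 min (interval 0.01 to 0.24) and 0.00 at 120 min. The other 318 measured members had -0.03, -0.00 and -0.07. Near-identical family members may not be told apart by hybridization, so their values are not independent. The Y′ helicase genes of the list, all with YRF1 names, had the highest family medians, 0.31, 0.72 and 0.69 over 3 measured features. YRF1-7 had a pair of features at 0.37, 0.72 and 0.85 and at 0.31, 0.93 and 0.39, and the values of YRF1-4 are given above. All 3 features were above 0 in each column and higher at both times in rapamycin than in untreated cells.

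Seripauperin (PAU) genes encode mannoproteins of the cell wall that are expressed in anaerobic growth. The 21 measured members, of 16 genes, had medians of 0.21 without rapamycin, 0.24 at 30 min and 0.12 at 120 min, with 17, 16 and 11 above 0. Over all features 50.0% were above 0 in each column, by construction. The family's difference to 120 min had a median of -0.24, with 8 of 21 above 0, beside a median of 0.07 and 56.1% above 0 over all features. Its highest differences to 120 min were at features of PAU4 and PAU15. One PAU4 feature stood at 0.30, 0.52 and 1.05, and the PAU15 feature at 0.09, 0.52 and 0.48. Its lowest were at a PAU8 feature with 0.13, 0.25 and -0.85 and at a PAU1 feature with 0.32, -0.01 and -0.15. The other features of PAU4 and PAU8 did not share these values, since the second PAU4 feature stood at 0.27 and the other PAU8 features between 0.12 and 0.54 at 120 min.

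The COS genes (16 features of 10 genes) had medians of -0.09, 0.05 and -0.02. COS9 held the lowest score of the family in each column. One of its features stood at -1.50, -1.27 and -1.44, the single member beyond the lower limit in all 3 columns, and the other stood at -0.20, 0.33 and 0.45. No member was beyond the upper limit in all 3. The lowest differences to 120 min in the family were at COS1, in a feature with 0.47, -0.02 and -0.09, and at COS12. The highest were at the second COS9 feature and at a COS6 feature with 0.33, 0.58 and 0.89.

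Flocculin genes, whose products make cells stick together, had low medians of -0.47, -0.27 and -0.32 over 7 features. FLO9 on the left arm of I was lowest in untreated cells: its 3 features stood at -1.68, -1.37 and -0.40 there, at -1.04, -0.58 and -0.16 after 30 min, and at -0.15, -0.32 and 0.45 after 120 min. Each of the 3 was higher at 30 min than in untreated cells and higher again at 120 min. The 3 features of FLO10 did not share that course, and 1 of them was lowest at 120 min, with 0.06, -0.38 and -0.89. FLO5, given above with its arm, was low in untreated cells and at 120 min.

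Hexose transporter genes HXT8 to HXT17 lie mostly near chromosome ends, and 15 member features of 8 genes had medians of -0.01, 0.06 and -0.02. HXT11 had the lowest untreated score of all members in 1 of its 2 features, with -1.82, 0.26 and 0.33, while the other stood at 0.28, 0.06 and -0.23. HXT16 was higher at 120 min in 1 feature, with -0.22, 0.00 and 0.74, and not in the other, with -0.21, 0.04 and -0.48. HXT9 stood at -0.01, -0.19 and -0.66. The highest 2 differences to 120 min in the family were those of HXT11 and HXT16, and the lowest were those of HXT9 and of the second HXT11 feature.

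The maltose and isomaltose genes, which encode regulators, transporters and glucosidases for sugar use, had medians of 0.04, 0.06 and 0.11 over 14 features of 11 genes. IMA2, an isomaltase gene, had the largest difference to 30 min of the family, from -0.76 to 0.90, and stood at 0.03 at 120 min. IMA3 followed with -0.36, 0.51 and 0.18. MAL12, a maltase gene, had a feature at 0.83, 0.09 and 0.25, and MAL13, a regulator gene on the same arm, a feature at 0.28, -0.25 and -0.31. At the MAL3 locus on the right arm of II, MAL31, MAL32 and MAL33 were all lower at 30 min than in both other columns, with MAL33 at -0.30, -0.84 and -0.17.

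The genes of thiamine and vitamin B6 synthesis had 7 measured features with medians of -0.03, 0.05 and -0.27. THI5 had the lowest score of all members at 30 min, -2.41, between -0.33 in untreated cells and -0.30 at 120 min. Its near copies did not show this: THI11 stood at 0.67, 0.35 and -0.27, THI12 at -0.03, 0.01 and -0.03, and THI13 at -0.58, -0.87 and -0.84. SNZ3, next to THI5 in the order of ORF numbers, stood at 0.77, 0.05 and 0.35. Of the 4 measured aryl-alcohol dehydrogenase genes, AAD14 was highest in its difference to 120 min, with -1.32, -0.97 and -0.22, and AAD4 lowest, with 0.09, 0.09 and -0.02. AAD10 stood at -0.46, -0.69 and -0.01 and AAD15 at 0.41, 0.57 and 0.79.

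**Figure D5:**
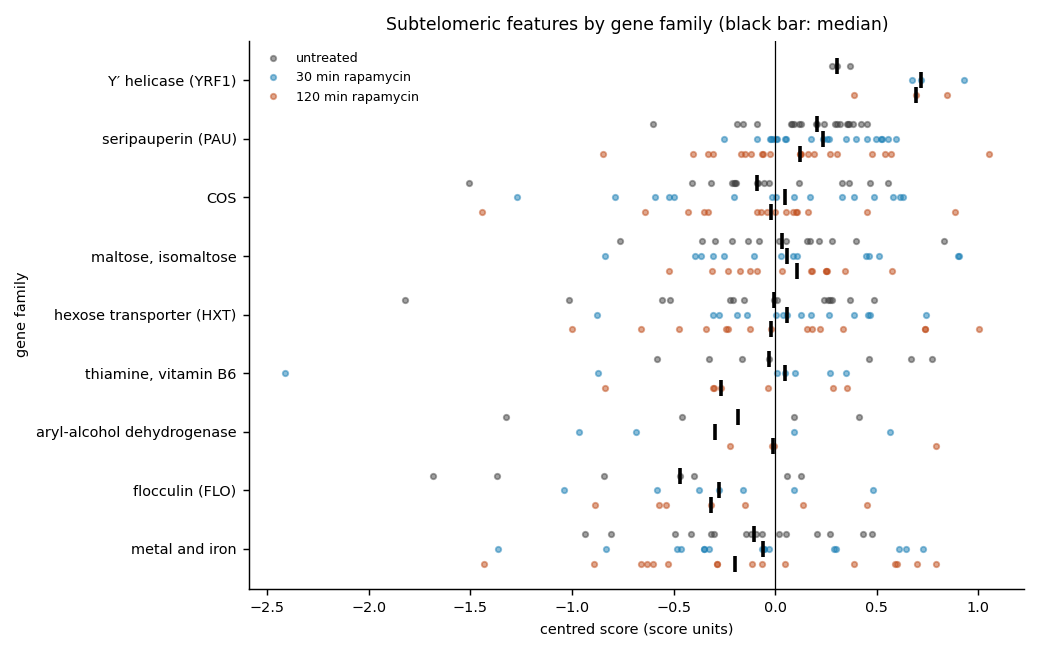
Centred scores (score units) of the member features of 9 gene lists (vertical axis) in the 3 conditions, 1 point a feature, with the median as a black bar. The Y′ helicase genes have the highest medians, 0.31, 0.72 and 0.69, and the flocculin genes stand at -0.47, -0.27 and -0.32.

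Genes that occur in pairs at different ends were also compared. SOR1, a sorbitol dehydrogenase gene, stood at -0.49, 0.54 and 0.20, while the features of its copy SOR2 stood at 0.06, -0.70 and 0.77 and at 0.15, 0.48 and -0.05. VTH1 and VTH2, which encode homologues of a vacuolar sorting receptor, had the same course, with -0.01, 0.52 and 0.46 for the first and -0.24, 0.17 and 0.18 for the second. GEX1 stood at 0.15, 0.26 and 0.07, above GEX2 in each column. FDH1, a formate dehydrogenase gene, was below 0 throughout, with -0.36, -0.72 and -0.78. Over the 12 features of these small groups the medians were -0.15, 0.21 and 0.13, and the lowest differences to 120 min were at a GEX2 feature and FDH1, the highest at PHO12 and SOR2.

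Genes for metal and iron uptake had 16 member features of 10 genes, with medians of -0.11, -0.06 and -0.20. FIT1, a cell wall mannoprotein gene of iron uptake, was low in both features, with -0.94, -1.36 and -0.60 in 1 and -0.49, -0.83 and -0.66 in the other. ENB1, an enterobactin transporter gene, stood high at 0.48, 0.73 and 0.79. ARN2, which encodes a siderophore transporter, had a feature at 0.02, 0.65 and 0.70 and another at -0.41, -0.47 and -0.89. FRE5, a ferric reductase-like gene, stood at 0.06, 0.30 and 0.60. FET4, a low-affinity iron transporter gene, and FRE2, a ferric reductase gene, had the lowest differences to 120 min, from 0.20 to -0.53 in an FET4 feature and from -0.81 to -1.43 in an FRE2 feature.

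Genes of nutrient uptake and use (14 features of 10 genes) had medians of -0.13, -0.08 and -0.29. At 120 min 3 of 14 were above 0, beside 50.0% of all features. To 30 min their median difference was 0.16, with 9 of 14 above 0, beside -0.00 and 49.5% over all features. Over all 31 measured features of the list, members or not, 12 were above 0 at 120 min and 20 in the difference to 30 min. VBA5, a relative of VBA3, stood at -0.85, 0.04 and -0.39, and OPT2, an oligopeptide transporter gene, at -0.61, 0.07 and -0.42, both higher at 30 min than in the other columns, as was VBA3, given above. JEN1, the lactate and pyruvate transporter gene, stood at 0.56, -0.80 and -0.13. Both features of MCH2, a monocarboxylate permease-like gene, were, like JEN1, lower at 30 min than in both other columns, at 0.05, -0.63 and -0.26 and at 0.23, -0.56 and -0.26. BIO2, the biotin synthase gene, had a feature at 0.11, 0.31 and 0.80. GIT1, a permease gene for glycerophosphoinositol, is described below with its tRNA neighbour.

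Outside the families the members with the lowest untreated scores were YOL160W, in a feature with -1.80, 0.03 and -0.12, and LRG1, which encodes a GTPase-activating protein for Rho1, with -1.66, 0.59 and -0.23. LRG1 had the largest difference to 30 min of all members, 2.25. The other YOL160W feature stood at -0.73, -0.19 and -0.01. TUB3, an alpha-tubulin gene on the left arm of XIII, had a high value at 30 min alone, with -0.99, 0.63 and -1.03.

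The highest untreated scores were 1.15 at 1 of 2 features of SGE1, a multidrug transporter gene, and 1.11 at ISC10, a gene required for sporulation. ISC10 stayed high with 0.87 and 1.31, while the SGE1 feature stood at 0.89 at 30 min and at -0.96 at 120 min. The other SGE1 feature had 0.35, -0.35 and -0.14. SNO4, a chaperone gene on the right arm of XIII, had 0.97, 0.32 and -0.77, and SEA4, which encodes a subunit of the SEA complex that acts on TOR signalling, had 0.88, 0.04 and -0.34. YHR214W had 0.95, -0.29 and 0.45. In SNO4, SEA4 and the first SGE1 feature the score was lower at each later column.

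At 30 min YEL073C had 1 of 5 features at -2.24, between -1.24 and -0.62, and a second at -1.17, -0.82 and -1.50. The feature of YCL065W given above had the largest downward difference to 30 min of all members, at -2.29. One of the 6 features of TDA8 stood at 0.86, -0.57 and 0.07, while the others lay between 0.24 and 0.75 at 30 min. YAR066W, also on chromosome I, stood at 0.70, -0.73 and 0.67. MPH3, an alpha-glucoside permease gene, stood in 1 feature at 0.40, 0.90 and -0.09. THI5, YAR066W, JEN1 and these single features of YCL065W and TDA8 were thus low at 30 min and nearer to their untreated value at 120 min.

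At 120 min the lowest members were YGR290W with -0.12, -0.17 and -1.997, HSU1 with -0.14, -0.18 and -1.87, and RIF2 with 0.61, -0.39 and -1.76. HYR1, a glutathione peroxidase gene, had -0.13, 0.59 and -1.48. RIF2, whose product binds Rap1 and limits telomere length, had the largest downward difference to 120 min of all members, at -2.37. The highest at 120 min, beside ISC10 and the outermost features already given, were a BSC5 feature with 0.74, 0.17 and 1.27 and YJR154W with -0.45, -0.02 and 1.06. YGR290W and HSU1 differed little between untreated cells and 30 min.

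Of the telomere and silencing genes, which lie across the genome, SIR1 and RIF2 have members. SIR1, needed to start silencing at the mating-type loci, had features at -0.22, -0.58 and -0.06, at 0.10, 0.24 and 0.50, and at -0.25, -0.60 and -1.15. Over all 21 features of 19 listed genes the medians were -0.18, -0.14 and -0.16, with 7, 8 and 9 of 21 above 0. The difference to 120 min was above 0 in 16 of 21, beside 56.1% of all features, with a median of 0.17 beside 0.07 over all features. Of the 4 member features in the list 2 were above 0. At 120 min RIF2 and 1 SIR1 feature were the 2 of the list beyond the lower limit, beside 4.35% of all features. Beyond the upper limit, beside 7.6% of all features, were 3 that are no members: YKU80 at 1.90, EST3 at 1.66 and TEN1 at 1.58.

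The 7 members with a Pol III gene as the next gene in the table belong to 6 genes. Among other ORF-named features the medians differed by the side of the Pol III gene, which was not tested. With that gene at the higher coordinates (230 features) they were 0.53, 0.45 and 1.22. With it at the lower coordinates only (200 features) they were -0.04, -0.05 and 0.06. Only 2 members, HMRA1 and FMP27, had it at the higher coordinates. FMP27, a gene for a large lipid transfer-like protein, stood at 0.20, 0.08 and 0.67, and HMRA1, given above, was below 0 in each column. MIX23, a mitochondrial protein gene, had -0.16, 0.41 and 0.62 with its Pol III gene on the lower side. GIT1 had -1.39, -0.68 and -0.63 in 1 feature and -0.43, 0.23 and -0.31 in the other. YER181C had 0.21, 0.02 and 0.25, and PDP3, which encodes a subunit of a histone acetyltransferase complex, 0.19, 0.16 and 0.28. At 120 min the 2 members with the Pol III gene on the higher side, at 0.67 and -0.78, were below the median of 1.22 of the other such features. The 5 with it on the lower side had a median of 0.25, beside 0.06.

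How far a single value can be read was gauged from features that share an ORF name. Features with successive numbers under the same ORF name were paired, which gave 92 pairs under 69 names of members. The labels do not say whether these numbers follow the order along the chromosome. The median absolute difference within a pair was 0.36 without rapamycin, 0.36 at 30 min and 0.41 at 120 min. Any 2 members differed by a median of 0.39, 0.45 and 0.47. Features of the same ORF were therefore little more alike than any pair of members. The widest range within an ORF name was 2.75, at YEL073C after 30 min, followed by 2.10 at HXT11 in untreated cells and 1.89 at COS9 after 120 min. Several of the extreme scores above are thus held by 1 feature of an ORF and not by another feature of the same ORF.

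Between columns the members kept part of their order. Pearson correlations across the 417 members were 0.368 between untreated cells and 30 min, 0.397 between untreated cells and 120 min and 0.453 between the times in rapamycin. The other ORF-named features without a Pol III neighbour had 0.455, 0.421 and 0.473. The columns share the array design and its probes, and features are not replicates of a condition. Of the 417 members 102 were above 0 in all 3 columns and 107 were below 0 in all 3. The same counts were not made for the other features, so no contrast is read from them.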

How the data were processed

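Scores were used as deposited: per the labels, the authors normalized 3 replicates with a list of genes and averaged them into 1 column. That list, the scanner processing and the array's design and build were not given in the sources used here. All 3 columns matched a sample, and 0 columns had none. The score's unit has no stated log base or direction. The design had assumed a log2 ratio, which the labels do not state.

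From each column the median of its measured features (6284, 6282 and 6279) was subtracted, and differences were taken per feature. The members and lists were chosen with earlier results of these data known. Features named in the text are the 5 highest and 5 lowest members of each column and difference, members next to a Pol III gene, outermost features, and the 2 lowest and 2 highest differences to 120 min in each list; others were chosen after their values were seen. Names and neighbours came from the RefSeq table of R64, and 42 members (39 ORF names) were not matched. The recovery of a known shift and the choice of members were checked on shuffled columns of these data. The counts beyond a limit were not checked in that way. Python 3.11.15, numpy 2.4.6, pandas 2.3.3, scipy 1.17.1 and matplotlib 3.10.9 were used. Alternatives are given in the closing section. Replicate arrays, genome coordinates and sequences, and with them the motif counts planned for promoters, were not analysed here.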

Additional observations from a re-analysis of the deposited data

How the results depend on the processing

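Of 286 alternative values for 29 results in 12 settings, 27 lay outside the interval of the reported value or, for counts of arms, beyond 1.5 times it. The difference to 30 min, the one median of the set whose interval leaves out 0, kept its sign throughout. Of 60 alternative medians of the set 10 turned sign, 1 of them with an interval that leaves out 0. Of 144 shares beyond a limit 10 lay on the other side of the share of all features. The medians at the outermost numbers stayed within their intervals in the alternatives run for them. With each chromosome centred on its own 18 arms in place of 12 had an untreated median above 0, and centred on ORF-named features without a Pol III neighbour 16 had. Without centring, the members' median was 0.078 at 30 min and the median difference to 30 min was 0.13; centred on ORF-named features without a Pol III neighbour, the 30 min median was 0.069. With the 5 highest numbers of each arm the medians were 0.047, 0.13 and 0.073, above 0 where the reported untreated and 120 min medians are below it, and the difference to 30 min was 0.15. Quantile normalization put 3.36% of members above the limit at 30 min and 0.240% at 120 min, beside 5.77% of all features in each, and 6.47% above it in the difference to 120 min, beside 3.81%. With each chromosome centred on its own, chosen for this share after seeing the data, 2.88% lay above at 30 min, beside 1.99%. At 3 robust SDs the shares above and below were 0% and 2.88% in untreated cells, 0% and 0.959% at 30 min, 0% and 0.719% at 120 min, 2.40% and 2.88% for the difference to 30 min, and 1.20% and 1.68% for that to 120 min; from 30 to 120 min 2.64% lay below. At 1 score unit they were 0.480% and 4.08% in untreated cells, 0% above at 30 min, and 2.40% on each side for the difference to 30 min. Except for the difference to 30 min at 3 robust SDs, given above, no share of all features is set beside these. No contrast with the array is therefore read from them. A share of 0 of 417 allows up to 0.881% (exact binomial, 95%), for counting error only. These shares follow from the limit itself; the cause of the other moves was not tested. No paired analysis was possible because each condition has 1 averaged column. The spread between arrays, signal over background and the strength of cross-hybridization between repeats are unknown here, and the promoter motif counts were not run.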
